A study of Mus musculus and Sus scrofa with 30 samples.

Results

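The 10 genes described here encode ligands, receptors, an intracellular brake and a secreted antagonist of transforming growth factor beta (TGF-beta) and bone morphogenetic protein (BMP) signalling: Tgfb1, Tgfb2, Tgfb3, Inhba, Bmp4, Tgfbr2, Tgfbr3, Bambi, Smad7 and Grem1. They were chosen by gene symbol, ignoring case, and each was listed once in both tables, among 24843 genes in mouse 3T3-L1 cells and 34307 in porcine dedifferentiated fat (DFAT) cells. 3T3-L1 is an embryonic fibroblast line that can be turned into fat cells, and DFAT cells are fibroblast-like cells derived from mature fat cells, here from subcutaneous fat. Each system had 5 groups of 3 libraries taken on day 5 of differentiation: vehicle (DMSO), dicoumarol, magnolol, dicoumarol together with magnolol (the combination), and rosiglitazone. All 3T3-L1 groups, vehicle included, received an adipogenic mix in 10% serum that held insulin at 0.75 µg/mL, dexamethasone at 75 nM and the phosphodiesterase inhibitor IBMX at 37.5 µM. All DFAT groups received a mix in 2% serum, with dexamethasone at 0.5 µM, IBMX at 12.5 µM, and biotin and pantothenate added. The sources used here give neither the compounds' doses nor the number of pigs behind the DFAT cells. The labels do not say whether replicates came from separate cultures, so p-values measure only the spread between these libraries, which may be technical.

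TGF-beta and activin ligands bring together type II and type I receptors, which phosphorylate SMAD2 and SMAD3, while BMPs act through SMAD1, SMAD5 and SMAD9. TGF-beta is known for holding back the conversion of preadipocytes into fat cells and for inducing matrix and contractile genes, whereas BMP4 is known for committing precursor cells to the fat lineage. Rosiglitazone activates PPARG, the master transcription factor of fat cells; dicoumarol is a vitamin K antagonist known to block NQO1, a quinone reductase, and magnolol is a phenolic compound of magnolia bark.

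The promoters of 3 of the genes are shown because Grem1 and Inhba had the 2 largest falls with rosiglitazone in 3T3-L1 cells, while Bmp4 had almost no reads there. RefSeq promoter windows (build GRCm38.p6) matched 6 of the 10 members: Tgfb1, Tgfb2, Inhba, Bmp4, Tgfbr2 and Grem1. Each line gives the 250 bases before the transcription start, 5′ to 3′ on the gene's strand, at chr2:113758649-113758898 (minus strand) for Grem1, chr13:16011601-16011850 (plus) for Inhba and chr14:46390670-46390919 (minus) for Bmp4. Capitals mark letters that match a GC-rich SMAD element in Grem1 and the letters TATAAA in Inhba.
Grem1: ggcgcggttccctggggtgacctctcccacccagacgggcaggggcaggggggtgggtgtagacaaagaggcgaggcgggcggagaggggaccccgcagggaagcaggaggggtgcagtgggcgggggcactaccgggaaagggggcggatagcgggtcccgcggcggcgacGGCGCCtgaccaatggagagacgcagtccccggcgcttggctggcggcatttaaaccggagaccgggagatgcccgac
Inhba: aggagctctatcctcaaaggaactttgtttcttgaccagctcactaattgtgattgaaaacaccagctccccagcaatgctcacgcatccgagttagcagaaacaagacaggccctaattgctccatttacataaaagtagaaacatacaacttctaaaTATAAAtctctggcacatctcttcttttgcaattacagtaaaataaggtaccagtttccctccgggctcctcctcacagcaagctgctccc
Bmp4: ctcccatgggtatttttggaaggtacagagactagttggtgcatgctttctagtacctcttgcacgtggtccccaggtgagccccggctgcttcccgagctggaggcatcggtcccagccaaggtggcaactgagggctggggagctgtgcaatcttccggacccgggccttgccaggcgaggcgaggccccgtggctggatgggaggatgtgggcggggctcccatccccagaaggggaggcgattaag

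On both strands of these windows 7 motifs were searched: the SMAD box CAGACA (in 17.1% of 32851 promoters of this length), the palindromic SMAD element GTCTAGAC (0.167%), the GC-rich SMAD element GGCGCC (9.59%), the PPAR element, a direct repeat of AGGTCA with 1 base between (0.0335%), the cAMP response element TGACGTCA (1.55%), the AP-1 element TGACTCA (4.46%) and TATAAA (12.4%). No 2 matches overlapped. The GC-rich SMAD element lay 78 bases before the Grem1 start and TATAAA lay 91 bases before the Inhba start. Tgfb2 held a SMAD box 204 bases and TATAAA 31 bases before its start, and none of the 7 was found in the windows of Tgfb1, Tgfbr2 or Bmp4. The windows of Grem1 and Inhba differed in CpG content, with 24 and 3 CpG dinucleotides against a median of 6 over all promoters. Bmp4 had 11. These matches describe letters in a window and no binding was measured.

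Values are counts divided by each library's DESeq2 size factor, called normalised counts below. The 3T3-L1 libraries held an estimated 22.8 to 30.7 M reads each and the pig libraries 44.8 to 70.5 M. Fold changes are on the scale of log2(normalised count + 1) and come from limma, with Benjamini-Hochberg adjustment over all 15723 mouse or 14819 pig genes tested; a gene was called at an adjusted p under 0.05. Mitochondrial transcripts took 14.3% and 11.6% of the counts in 3T3-L1 rosiglitazone replicates 1 and 3, against 5.22% to 7.72% in the other 13 libraries. DFAT shares were 9.58% to 10.2% in vehicle, 10.7% to 11.7% with dicoumarol and 10.5% to 12.9% with magnolol. They were 12.2% to 15.1% with the combination and 6.85% to 10.8% with rosiglitazone. The 10 adipocyte markers summed to 51717 to 69027 normalised counts in 3T3-L1 vehicle libraries and to 338532 to 581034 with rosiglitazone, and to 18715 to 21607 and 81512 to 88490 in DFAT cells. In bulk samples, fewer cells of a type and less RNA per cell cannot be told apart.

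In 3T3-L1 cells rosiglitazone lowered 6 of the 9 members tested and raised none, where 40.1% of all genes tested were called, 19.9% lower and 20.3% higher. The falls were led by Grem1, Inhba and Smad7. The median log2 fold change was -0.42 over the members and 0.00 over all genes. Bmp4 was not tested, since its mean was under 10. In DFAT cells the same compound raised 5 of 10 members and lowered 3, where 10.8% of all genes were called, 5.8% higher and 5.02% lower. Of the 3 leading mouse falls, all had the opposite sign in pig cells and were called there as rises. In 3T3-L1 cells 5 of the 6 falls, all but that of Tgfbr2, stayed called under every alternative run, also without either library of high mitochondrial share. In DFAT cells this held for TGFB3 and INHBA; without a filter on low genes TGFB1, TGFB2, TGFBR3 and GREM1 were not called (adjusted p = 0.0501 to 0.0774), and in the fit of the 2 groups alone TGFB1, TGFBR2, TGFBR3 and SMAD7 were not (0.0506 to 0.114).

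**Figure D1:**
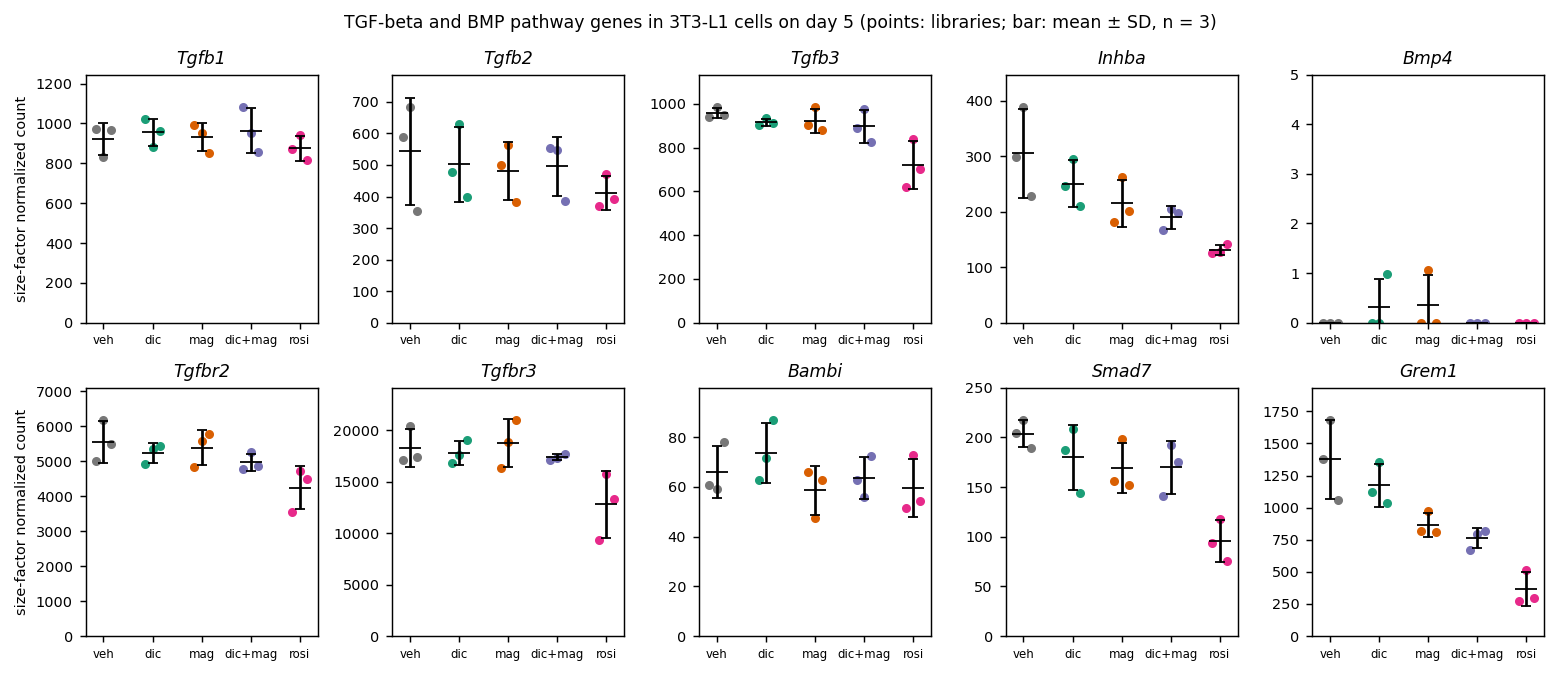
Size-factor normalised counts of the 10 genes in 3T3-L1 libraries on day 5, on linear axes that start at 0; points are libraries, bars the mean ± SD of 3, and the groups run from vehicle (veh) through dicoumarol (dic), magnolol (mag) and the combination (dic+mag) to rosiglitazone (rosi). Grem1 ran from 1062 to 1681 in vehicle and from 275 to 518 with rosiglitazone, and Bmp4 did not exceed 1.05 in any library.

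Among the ligands, Inhba, which encodes the subunit of activin A, had the largest fall with rosiglitazone in 3T3-L1 cells. In 3T3-L1 cells its normalised counts were 298, 389 and 229 in vehicle, 246, 295 and 211 with dicoumarol, 181, 262 and 202 with magnolol, 166, 205 and 198 with the combination, and 126, 127 and 142 with rosiglitazone. Every combination and rosiglitazone library lay below every vehicle library, while the single compounds overlapped vehicle. Rosiglitazone lowered Inhba by a log2 fold change of -1.17 (SE 0.19, limma adjusted p = 0.00015), to 0.44 times the vehicle level. The combination gave -0.66 (SE 0.19, adjusted p = 0.055), which was called only with the replicate number as a block (adjusted p = 0.00693) or without vehicle replicate 3 (log2 fold change -0.84, adjusted p = 0.0209). Magnolol gave -0.49 (adjusted p = 0.349) and dicoumarol -0.26, neither called.

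In DFAT cells INHBA went the other way. Its normalised counts were 217, 198 and 277 in vehicle, 296, 271 and 326 with dicoumarol, 360.3, 369 and 459 with magnolol, 402, 438 and 555 with the combination, and 346, 407 and 498 with rosiglitazone. All libraries of the last 3 groups lay above all vehicle libraries; only the dicoumarol group overlapped vehicle. INHBA rose by 0.78 under magnolol (SE 0.16, adjusted p = 0.00572), by 1.01 with the combination (SE 0.16, adjusted p = 0.000301) and by 0.85 with rosiglitazone (SE 0.16, adjusted p = 0.00128) on the log2 scale. Dicoumarol gave 0.38 (adjusted p = 0.373).

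Tgfb3, an isoform of TGF-beta, had the largest rise of any member with the combination in DFAT cells. Normalised counts were 539, 494 and 525 in vehicle, 622, 644 and 573 with dicoumarol, 927, 844 and 909 with magnolol, 1138, 1205 and 1231 with the combination, and 829, 1055 and 877 with rosiglitazone. The dicoumarol, magnolol and combination libraries formed 3 separate steps above vehicle, and the rosiglitazone libraries overlapped those of magnolol. TGFB3 rose by 0.78 with magnolol (SE 0.09, adjusted p = 1.87e-05), by 1.20 with the combination (SE 0.09, adjusted p = 4.76e-08) and by 0.82 with rosiglitazone (SE 0.09, adjusted p = 3.66e-06), which is 1.72, 2.29 and 1.76 times vehicle. Dicoumarol alone gave 0.24 (SE 0.09, adjusted p = 0.262).

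In 3T3-L1 cells Tgfb3 stood at 942, 986 and 951 in vehicle and at 621, 841 and 701 with rosiglitazone, with no overlap. Rosiglitazone lowered it by 0.42 (SE 0.10, adjusted p = 0.00418), a fold of 0.75. With dicoumarol, magnolol and the combination it ranged from 825 to 985 and log2 fold changes were -0.07, -0.06 and -0.10, none called.

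Tgfb1, the most studied isoform, moved little. Its 15 3T3-L1 libraries ranged from 815 to 1083 normalised counts and no comparison called it; with rosiglitazone the log2 fold change was -0.07 (95% confidence interval -0.30 to 0.15). In DFAT cells it stood at 633, 705 and 556 in vehicle, 572, 514 and 596 with the combination and 748, 800.3 and 941 with rosiglitazone. The rosiglitazone libraries lay above both other groups, with a rise of 0.39 over vehicle (SE 0.11, adjusted p = 0.021). The call was lost without vehicle replicate 1 (adjusted p = 0.0579), vehicle replicate 3 (0.10) or rosiglitazone replicate 3 (0.118), and in the fit of the compared groups alone (0.0783).

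Tgfb2, the third isoform, spread widely between 3T3-L1 vehicle libraries, at 589.7, 684 and 355 normalised counts. Rosiglitazone libraries, at 369, 472 and 393, fell inside that range, and the log2 fold change of -0.35 (SE 0.23) was not called (adjusted p = 0.236; 0.0267 with the replicate block, and 0.0277 without vehicle replicate 3). In DFAT cells vehicle was tight, at 3373, 3388 and 3431, and all rosiglitazone libraries were lower, at 2716, 2776 and 2665. TGFB2 fell there by 0.32 (SE 0.09, adjusted p = 0.0283). Leaving out any of 5 of the 6 libraries compared, all but rosiglitazone replicate 2, moved the adjusted p to between 0.0627 and 0.0888.

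Bmp4 separated the 2 systems by its presence. In 3T3-L1 cells it was listed at 0 in 13 of 15 libraries and reached 1.05 in a magnolol library. In DFAT cells every library had reads, from 222 to 340.2 normalised counts. No treatment called it there; log2 fold changes were 0.33 for dicoumarol (adjusted p = 0.265), 0.15 for magnolol, 0.14 for the combination and 0.21 for rosiglitazone. The tables were normalised separately, so these levels are not a test between species.

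**Figure D2:**
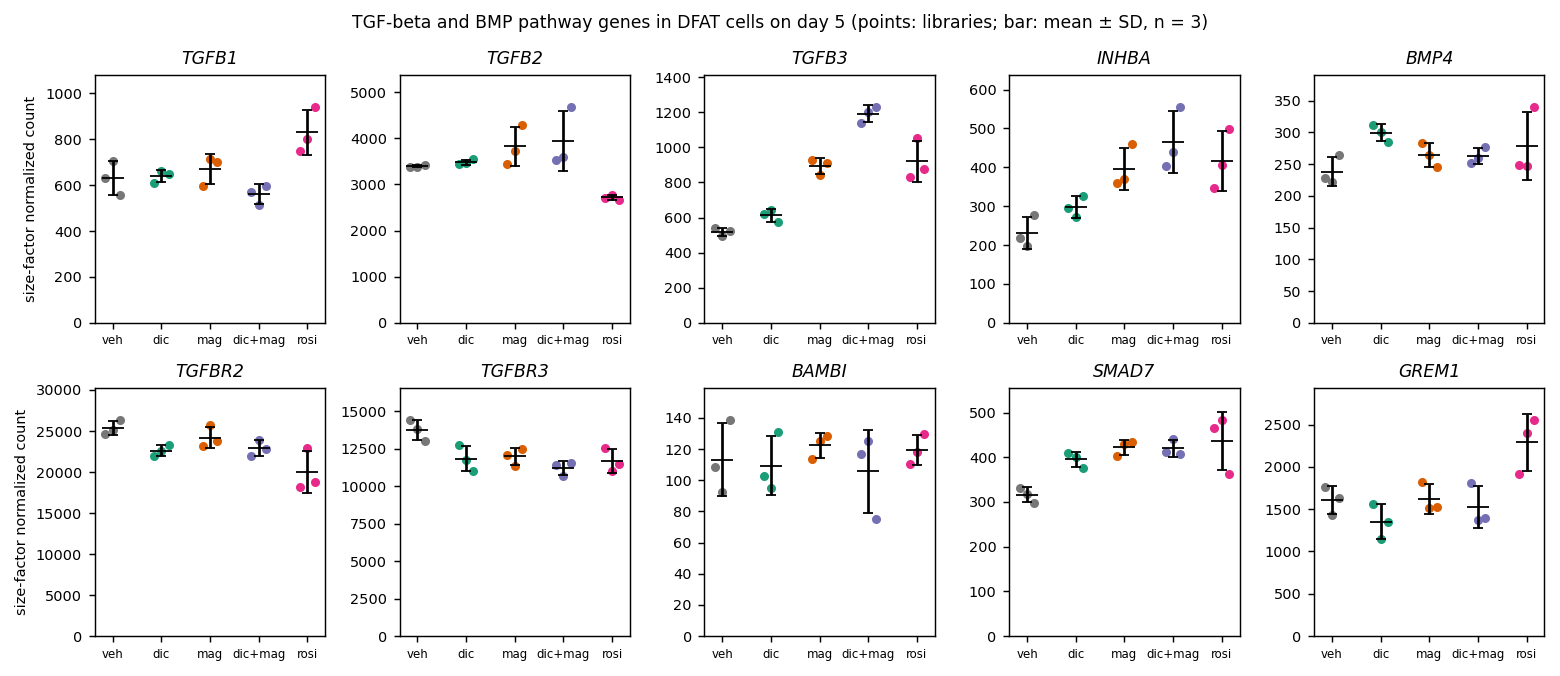
Size-factor normalised counts of the 10 genes in DFAT libraries on day 5, drawn as for 3T3-L1 cells (points are libraries, bars the mean ± SD of 3, linear axes from 0). TGFB3 stepped from 494 to 539 in vehicle up to 1138 to 1231 with the combination, while BAMBI and BMP4 overlapped vehicle with the combination and rosiglitazone.

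Both receptors, Tgfbr2 and Tgfbr3, fell with rosiglitazone in both systems. Tgfbr2, the type II receptor that binds TGF-beta, stood in 3T3-L1 cells at 4992, 6172 and 5484 normalised counts in vehicle and at 3535, 4717 and 4491 with rosiglitazone. The groups did not overlap, and the fall of 0.39 (SE 0.11) was called at an adjusted p of 0.0111. It was lost without vehicle replicate 2 (0.0581) or rosiglitazone replicate 1 (0.0636, log2 fold change -0.26), a library of high mitochondrial share, and in the fit of those 2 groups alone (0.0577). In DFAT cells TGFBR2 stood at 24653, 25079 and 26316 in vehicle and at 18229, 22957 and 18780.3 with rosiglitazone, a fall of 0.35 (SE 0.08, adjusted p = 0.0051; 0.0506 in the fit of those 2 groups alone).

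Tgfbr3, the co-receptor betaglycan that presents ligand to the type II receptor, had the most reads per kilobase of exon of any member in 3T3-L1 cells. Normalised counts were 17073, 20430.3 and 17444 in vehicle and 9304, 15737 and 13356 with rosiglitazone, all lower, with replicate 1 the lowest. The fall was 0.55 (SE 0.15, adjusted p = 0.00887). Without rosiglitazone replicate 1, a library of high mitochondrial share, the log2 fold change was -0.33 (adjusted p = 0.0417). In DFAT cells TGFBR3 stood at 14407, 13799 and 13052 in vehicle, 11401, 10663 and 11558 with the combination and 12563, 11006 and 11454 with rosiglitazone. It fell by 0.29 with the combination (SE 0.07, adjusted p = 0.00861; 0.0509 without vehicle replicate 1) and by 0.24 with rosiglitazone (SE 0.07, adjusted p = 0.0305). The rosiglitazone call was lost without vehicle replicate 1 (0.134) or 2 (0.0864), or without rosiglitazone replicate 2 (0.0873) or 3 (0.0981). Dicoumarol and magnolol gave -0.22 and -0.20 (adjusted p = 0.143 and 0.125).

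Bambi, a pseudoreceptor without a kinase domain that blocks TGF-beta and BMP receptors, was not called in any comparison of either system. Its normalised counts ranged from 47.5 to 86.8 over the 3T3-L1 libraries and from 75.2 to 138 over the DFAT libraries. With rosiglitazone the 95% confidence interval of its log2 fold change ran from -0.59 to 0.29 in 3T3-L1 cells and from -0.31 to 0.50 in DFAT cells.

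Smad7, the inhibitory SMAD that TGF-beta itself induces and that shuts down its receptors, fell in one system and rose in the other. In 3T3-L1 cells it stood at 205, 217 and 189 normalised counts in vehicle, 187, 209 and 144 with dicoumarol, 156, 198 and 153 with magnolol, 141, 193 and 176 with the combination, and 93.3, 117 and 75.3 with rosiglitazone. Only the rosiglitazone libraries all lay below vehicle, with a fall of 1.11 (SE 0.19, adjusted p = 0.000218) to 0.46 times vehicle. The combination gave -0.27 (adjusted p = 0.523).

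In DFAT cells SMAD7 stood at 332, 318 and 298 in vehicle, 409, 401 and 376 with dicoumarol, 402, 429 and 435 with magnolol, 411, 441 and 408 with the combination, and 465, 483 and 363 with rosiglitazone. Every treated library lay above every vehicle library. The rises were 0.41 with magnolol (SE 0.10, adjusted p = 0.0247), 0.41 with the combination (SE 0.10, adjusted p = 0.0141) and 0.45 with rosiglitazone (SE 0.10, adjusted p = 0.0059), and dicoumarol gave 0.32 (adjusted p = 0.154). The magnolol call was lost without vehicle replicate 2 (0.0557) or 3 (0.0972) or magnolol replicate 2 (0.0768) or 3 (0.0947), and the combination call without vehicle replicate 3 (0.0613) or combination replicate 2 (0.0591). The rosiglitazone call was lost in the fit of its own 2 groups (0.0629).

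Grem1, a secreted antagonist that binds BMP2, BMP4 and BMP7, gave the largest change of any member. Its 3T3-L1 normalised counts were 1382, 1681 and 1062 in vehicle, 1123, 1358 and 1038 with dicoumarol, 819, 976 and 809.99 with magnolol, 672, 798 and 817 with the combination, and 275, 518 and 300.1 with rosiglitazone. Magnolol, combination and rosiglitazone libraries all lay below vehicle, and rosiglitazone libraries lay below all others. Rosiglitazone lowered Grem1 by 1.95 (SE 0.20, adjusted p = 3.35e-06), to 0.26 times vehicle. The combination lowered it by 0.83 (SE 0.20, adjusted p = 0.0268). This was no longer called without vehicle replicate 1 (0.0753) or 2 (0.115), without combination replicate 1 (0.146) or 3 (0.0545), and without a variance trend (0.0622). Magnolol gave -0.64 (SE 0.20, adjusted p = 0.20), called with the replicate block (0.00931).

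In DFAT cells GREM1 stood at 1760.2, 1429.9 and 1629 in vehicle, 1809.7, 1369 and 1401 with the combination and 1915, 2402 and 2552 with rosiglitazone. The combination overlapped vehicle, at a log2 fold change of -0.08, and only rosiglitazone lay wholly above it, with a rise of 0.51 (SE 0.13, adjusted p = 0.0186). That call was lost without vehicle replicate 2 (0.0994), rosiglitazone replicate 2 (0.0505) or rosiglitazone replicate 3 (0.094), without a variance trend (0.0577) and without the filter (0.0678).

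Per kilobase of exon (GENCODE M21 lengths), the 3T3-L1 vehicle levels of the members ran from 2798 ± 281 normalised counts for Tgfbr3 (SD, n = 3) through 678 ± 72.4 for Tgfbr2, 332 ± 74.6 for Grem1, 284 ± 6.92 for Tgfb3, 183 ± 16.0 for Tgfb1, 93.7 ± 29.3 for Tgfb2, 47.7 ± 12.5 for Inhba and 45.1 ± 3.09 for Smad7 to 13.0 ± 2.06 for Bambi, with Bmp4 listed at 0 in all 3 libraries. Libraries overlapped between Grem1 and Tgfb3 and between Inhba and Smad7, and not between the other neighbours. With rosiglitazone Grem1 stood at 87.8 ± 32.2 per kilobase, against 213 ± 32.9 for Tgfb3. Lengths for pig genes were not used here.

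In the main fit, which has no block, dicoumarol alone called no member in either system. In 3T3-L1 cells limma called 0 of all genes (0%) in that fit, and 0 of the 9 members had an unadjusted p under 0.05. With the replicate block some genes were called in 3T3-L1 cells, and INHBA and TGFBR3 were called in DFAT cells, as the closing section gives. In the main fit 1.94% of all DFAT genes were called, and 6 of the 10 members had an unadjusted p under 0.05: TGFB3, INHBA, BMP4 and SMAD7 upward, TGFBR2 and TGFBR3 downward. The share of all genes at that unadjusted threshold is not given, here or below. Counts of members at it therefore have no background and are not to be set beside the shares called. Magnolol called 0 of 9 members in 3T3-L1 cells (1.23% of all genes; 2 members, Grem1 and Inhba, at an unadjusted p under 0.05). In DFAT cells magnolol called 3 of 10, all higher (4.22% of all genes were called, 2.96% higher and 1.27% lower): TGFB3, INHBA and SMAD7.

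The combination called 1 of 9 members in 3T3-L1 cells, Grem1, lower (5.22% of all genes were called, 1.36% lower and 3.86% higher). In DFAT cells it called 3 higher and TGFBR3 lower (10.2% of all genes were called, 6.11% higher and 4.06% lower). Set against dicoumarol alone (2.35% of DFAT genes called, 2% higher and 0.344% lower), it raised TGFB3 by 0.96 (SE 0.09, adjusted p = 2.25e-06) and INHBA by 0.63 (SE 0.16, adjusted p = 0.0409). The INHBA call was lost under quantile normalisation (0.0644), without a filter on low genes (0.129) and without any of 5 libraries (0.0691 to 0.24). Against magnolol alone (0.621% called, 0.385% higher and 0.236% lower) it raised TGFB3 by 0.41 (SE 0.09, adjusted p = 0.0319), which was no longer called when any of the 6 libraries was left out (0.080 to 0.157). In 3T3-L1 cells 0 of 9 members were called against dicoumarol (0.0254% of all genes; 1 member at an unadjusted p under 0.05) and 0 against magnolol (0%; 0 members). Grem1 against dicoumarol gave -0.62 (adjusted p = 0.323, with the replicate block 0.0181).

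A test of additivity, comparing the combination on the log2 scale with the summed effects of dicoumarol and magnolol, called 0 of 9 members in 3T3-L1 cells (0% of all genes) and 0 of 10 in DFAT cells (0.081%). At an unadjusted p under 0.05 there were 0 and 1, the latter SMAD7 at -0.33 (SE 0.14). For TGFB3 in DFAT cells the departure was 0.18 (95% confidence interval -0.08 to 0.43), and for Grem1 in 3T3-L1 cells it was 0.03 (-0.59 to 0.64). These values come from the main fit, which does not use the pairing of the 3T3-L1 libraries by replicate number.

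Rosiglitazone was also set against the combination. In 3T3-L1 cells 4 of 9 members were lower (18.3% of all genes were called, 8.78% lower and 9.53% higher): Grem1 by 1.12 (SE 0.20, adjusted p = 0.00283), Smad7 by 0.84 (SE 0.19, adjusted p = 0.00754), Tgfbr3 by 0.48 (adjusted p = 0.0389) and Tgfb3 by 0.32 (adjusted p = 0.0413). Without rosiglitazone replicate 1 the Tgfbr3 difference was -0.26 (adjusted p = 0.195) and the Tgfb3 difference -0.22 (0.208); both calls were also lost without combination replicate 1 (0.082 and 0.0901), combination replicate 2 (0.0852 and 0.141) or rosiglitazone replicate 3 (0.0561 and 0.0938), and that of Tgfbr3 without combination replicate 3 (0.0999). With the replicate block Inhba (-0.52, adjusted p = 0.0139) and Tgfbr2 (-0.24, 0.020) were called too. In DFAT cells (17% of all genes called, 8.24% higher and 8.79% lower) the isoforms split: TGFB1 was higher by 0.56 (SE 0.11, adjusted p = 0.00122) and GREM1 by 0.59 (SE 0.13, adjusted p = 0.00519), while TGFB2 was lower by 0.52 (SE 0.09, adjusted p = 0.000602) and TGFB3 by 0.38 (SE 0.09, adjusted p = 0.00544). TGFBR2 gave -0.20 (adjusted p = 0.0799), called with the replicate block (0.0214) or without rosiglitazone replicate 2 (-0.31, 0.00263).

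The response of each member was then compared between the systems, as the 3T3-L1 minus the DFAT log2 fold change, adjusted over 9368 symbols found once in each table. With rosiglitazone 5 of 9 members differed (38.8% of all symbols): Grem1 by -2.45 (SE 0.24, adjusted p = 1.71e-08), Inhba by -2.02 (SE 0.24, adjusted p = 1.73e-07), Smad7 by -1.56 (SE 0.21, adjusted p = 3.09e-06), Tgfb3 by -1.24 (SE 0.13, adjusted p = 2.83e-08) and Tgfb1 by -0.47 (SE 0.15, adjusted p = 0.0135; 0.0528 without DFAT rosiglitazone replicate 3). With the combination 4 differed (11.7%), Inhba by -1.66 (SE 0.24, adjusted p = 3.39e-05) and Tgfb3 by -1.30 (SE 0.13, adjusted p = 1.41e-07), each below 0 in 3T3-L1 and above 0 in DFAT cells, and Grem1 and Smad7 by less. With magnolol 2 differed (3.23%), Inhba by -1.27 (SE 0.24, adjusted p = 0.00232) and Tgfb3 by -0.84 (SE 0.13, adjusted p = 0.000402). With the replicate block in 3T3-L1 cells, where the numbers pair the libraries, Grem1 (-0.66, adjusted p = 0.0247) and Smad7 (-0.69, 0.00706) were called with magnolol too. With dicoumarol 0 differed (0.149% of all symbols were called; 3 members at an unadjusted p under 0.05). For Tgfbr2 with rosiglitazone the difference was -0.04 (SE 0.14, adjusted p = 0.834): it fell by 0.39 and 0.35. Species, medium and serum differ along with the cells and cannot be told apart, and all comparisons with vehicle in a system share its vehicle libraries.

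**Figure D3:**
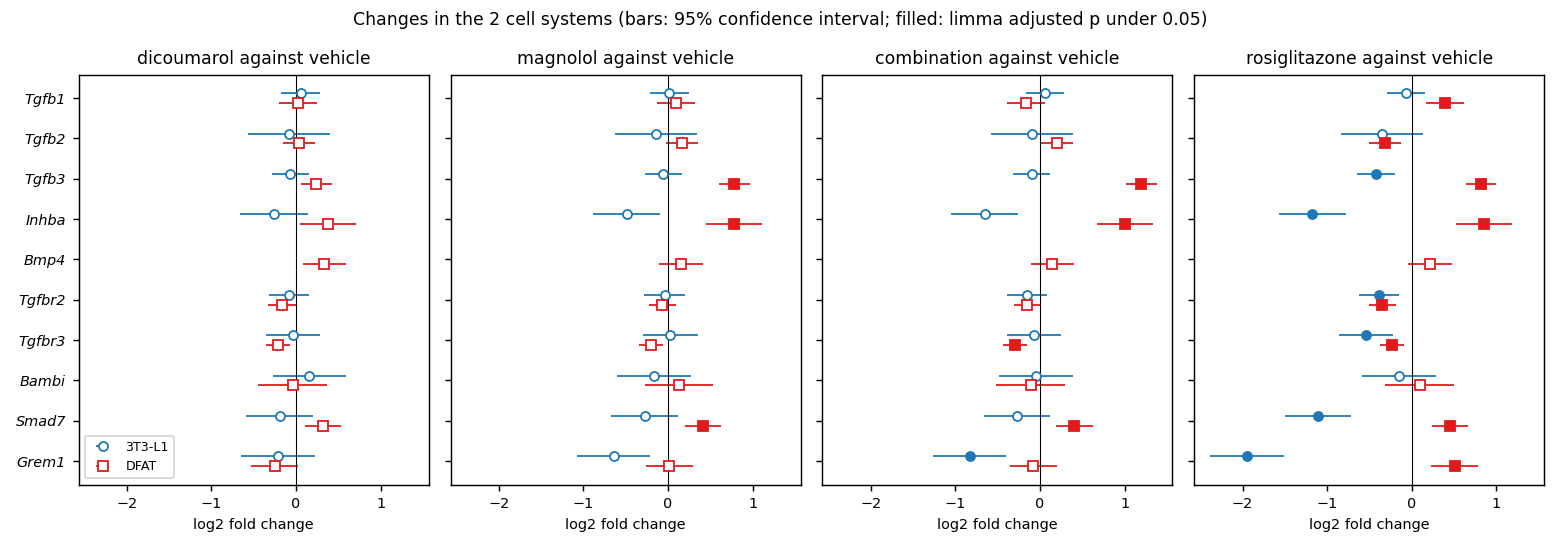
Log2 fold change against vehicle (x axis) of each member (rows) in 3T3-L1 cells (blue circles) and DFAT cells (red squares) for the 4 treatments; bars are 95% confidence intervals, filled symbols are called by limma, and mouse Bmp4 was not tested. With rosiglitazone Grem1 lay at -1.95 in 3T3-L1 and 0.51 in DFAT cells, while Tgfbr2 lay at -0.39 and -0.35.

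Beyond the members, 85 further genes of the pathway were followed in 7 lists, of which 65 were tested in 3T3-L1 and 73 in DFAT cells. The lists were chosen with earlier results of these data known, so their shares are a description and no test of the pathway. In 3T3-L1 cells rosiglitazone lowered 41 and raised 4 of the 65 (median log2 fold change -0.58, against 0.00 over all genes), where 19.9% of all genes tested were called lower and 20.3% higher. Falls took 9 of 13 SMADs and SMAD regulators, 7 of 9 latency and activation genes, 6 of 9 antagonists, 5 of 11 receptors, 4 of 7 BMP-responsive and 9 of 11 TGF-beta-responsive genes. Of the 5 ligands tested 1 fell and 1 rose. Rises also took 2 of 9 antagonists and 1 of 11 TGF-beta-responsive genes. Fn1, the matrix protein fibronectin, fell from 144022 ± 14611 to 44197 ± 16816 normalised counts (SD, n = 3; log2 fold change -1.77, adjusted p = 7.04e-06), and Id4, a BMP-responsive inhibitor of DNA binding, by 1.44 (adjusted p = 4.74e-07). Thbs1, which activates latent TGF-beta, fell by 1.58 (adjusted p = 0.0221), no longer called without vehicle replicate 2 (log2 fold change -1.01, adjusted p = 0.135), rosiglitazone replicate 1 (0.099) or rosiglitazone replicate 3 (0.0534). Bmper, a BMP-binding regulator, rose by 0.74 (adjusted p = 0.00457).

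With the combination 3 list genes of 65 fell and 1 rose in 3T3-L1 cells, where 1.36% of all genes were called lower and 3.86% higher. The rise was in the TGF-beta-responsive list. Id4 fell by 0.63 (adjusted p = 0.00564). Acta2, smooth muscle actin, fell by 1.07 (adjusted p = 0.0425), and Timp1, a metalloproteinase inhibitor, by 0.57 (adjusted p = 0.0235). Neither was called without a variance trend (0.0948 and 0.0515). Acta2 was also not called without any of 5 of the 6 libraries, all but vehicle replicate 3 (0.0547 to 0.165), nor Timp1 without vehicle replicate 3 (0.102) or combination replicate 1 (0.155). Magnolol called Id4 alone (1.23% of all genes were called), lower by 0.60 (adjusted p = 0.0226; lost without vehicle replicate 1 (0.0867) or 2 (0.0832) or magnolol replicate 1 (0.10) or 3 (0.13)). With dicoumarol 0 of 65 were called. With the replicate block, 9 list genes were called with magnolol and 19 with the combination. The block also called more of all genes, as the closing section gives, so these counts are not to be set beside the shares above.

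In DFAT cells 7 of 12 TGF-beta-responsive genes were called higher and none lower with magnolol (median log2 fold change 0.52), where 2.96% of all genes were called higher and 1.27% lower. With the combination 8 of the 12 were called higher and 1 lower (median 0.52), where 6.11% of all genes were called higher and 4.06% lower. CNN1, the contractile protein calponin, went from 777 ± 119 to 2267 ± 279 normalised counts with the combination (SD, n = 3; log2 fold change 1.55, adjusted p = 1.15e-05) and rose by 1.20 with magnolol (adjusted p = 0.000424). LDLRAD4, a TGF-beta-induced inhibitor of SMAD signalling, rose by 0.95 (adjusted p = 0.000619) and LTBP2, a latent TGF-beta binding protein family member, by 0.87 (adjusted p = 3e-06) with the combination. TGFBI, another TGF-beta-induced matrix gene, fell by 0.95 (adjusted p = 1.56e-07), as did ID2 by 0.71 (adjusted p = 9.94e-05) and SMAD3 by 0.33 (adjusted p = 0.00124). In all 7 lists magnolol raised 12 and lowered 1, SMAD3 by 0.22 (adjusted p = 0.044, over 0.05 without any of its 6 libraries), and the combination raised 17 and lowered 4 (median log2 fold change 0.08, against -0.01 over all genes).

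COL1A1, the main collagen of connective tissue, rose in DFAT cells by 0.86 with magnolol (adjusted p = 0.000728) and LDLRAD4 by 0.71 (adjusted p = 0.0141; lost without vehicle replicate 1, 0.0742, or magnolol replicate 1, 0.051, or 3, 0.0879). Under quantile normalisation the COL1A1 rise was 0.28 (adjusted p = 0.328). That setting gives genes of the same rank the same value in every library. COL1A1 was among the most abundant genes, at a vehicle mean of 1039188 normalised counts, so this fit cannot decide whether the rise holds. Dicoumarol raised 3 list genes and lowered 3 of 73, where 1.94% of all genes were called. TGFBI fell by 0.82 (adjusted p = 5.56e-06), ID2 by 0.62 (adjusted p = 0.00178) and LTBP2 rose by 0.48 (adjusted p = 0.00573). CNN1 (0.72), COL1A1 (0.59) and ID3 (-0.63), at adjusted p of 0.0431, 0.0264 and 0.047, lost the call when any library was left out. COL1A1 went to 0.09 under quantile normalisation, with the same limit.

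Rosiglitazone raised 10 and lowered 8 of the 73 list genes in DFAT cells, with a median log2 fold change of -0.03, where 5.8% of all genes were called higher and 5.02% lower. BMPER rose by 1.19 (adjusted p = 9.78e-07), from 151 ± 5.03 to 346 ± 31.9 normalised counts (SD, n = 3). LDLRAD4 rose by 1.06 (adjusted p = 0.000196) and CCN2, connective tissue growth factor, by 0.74 (adjusted p = 0.00434). FST, the activin-binding protein follistatin, fell by 0.79 (adjusted p = 4.55e-05), ACVR2A, an activin receptor, by 0.43 (adjusted p = 0.000512) and LTBP3 by 0.39 (adjusted p = 0.00358). The TGF-beta-responsive list had 5 higher and none lower.

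**Figure D4:**
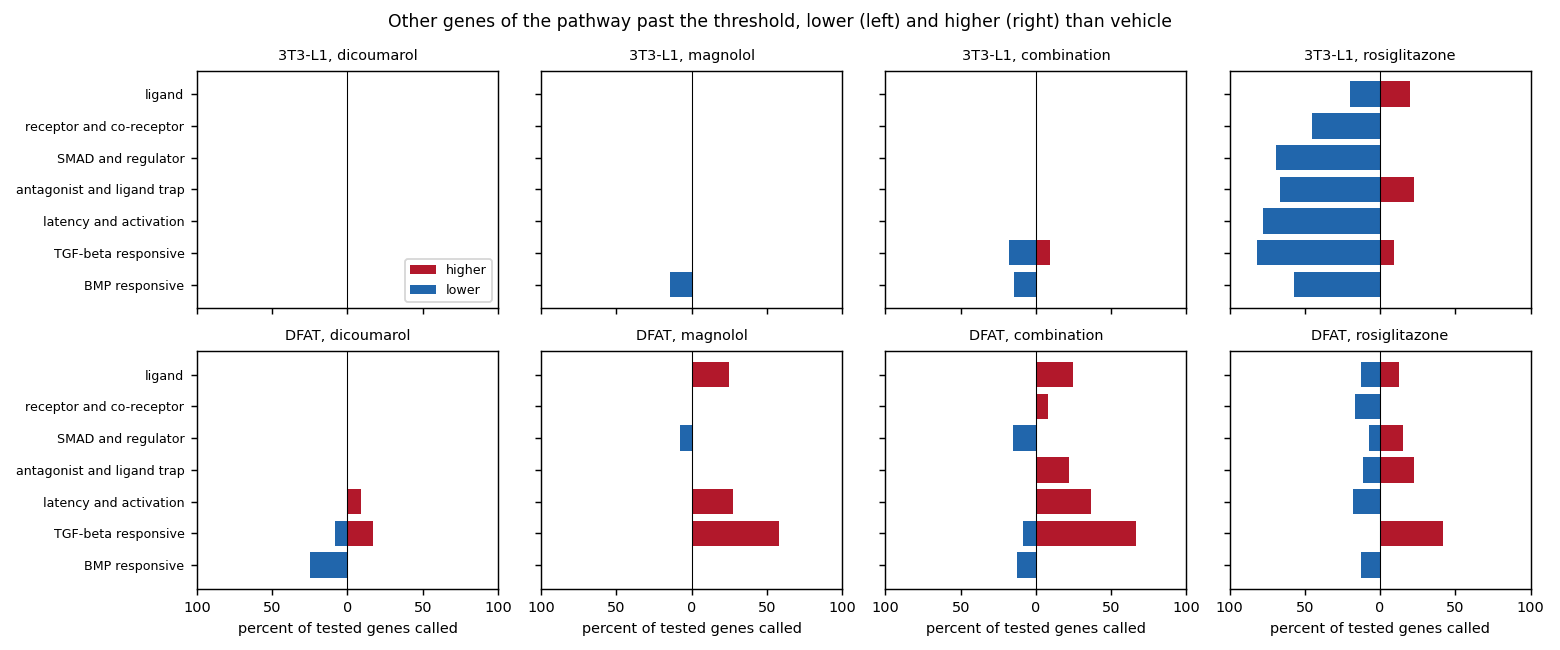
Share of the tested genes of each of 7 pathway lists (rows; members not included) that limma called lower (blue, left) or higher (red, right) than vehicle, in percent, in 3T3-L1 (top) and DFAT cells (bottom). Falls took 9 of 11 TGF-beta-responsive genes with rosiglitazone in 3T3-L1 cells, and rises took 8 of 12 with the combination in DFAT cells, where 19.9% and 6.11% of all genes were called in those directions. In each case 1 gene of that list was called the other way. The lists were chosen with earlier results of these data known.

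Markers of cell types moved beside these genes, and their part in the results was not tested. In 3T3-L1 cells rosiglitazone raised all 9 adipocyte markers tested (dicoumarol raised 0, magnolol 6 and the combination 9) and lowered 6 of 7 fibroblast markers, whose sum went from 149239 to 162437 in vehicle to 83154 to 107889 normalised counts. In DFAT cells rosiglitazone raised 9 of 10 adipocyte markers and lowered 3 of 5 fibroblast markers tested, and the combination raised all 10 adipocyte markers and both muscle markers tested, raised 1 of 5 fibroblast markers (COL3A1, by 0.55, adjusted p = 0.00587) and lowered 3 (DCN, LUM and PDGFRA); dicoumarol raised 6 and magnolol 8 adipocyte markers. The fibroblast sum there was 677290.3 to 716074 in vehicle, 826275 to 1017424 with the combination and 476010 to 513362 with rosiglitazone; COL3A1 made up most of it, at 389774 to 900387 over the 15 libraries. The sum of 4 muscle markers was 583 to 644 in DFAT vehicle, 925 to 1109.9 with dicoumarol, 1293 to 1847 with magnolol, 1866 to 2553 with the combination and 695 to 1045 with rosiglitazone; MYH11, the smooth muscle myosin, reached 2411 while MYOD1 and MYOG did not exceed 3.16. Immune, endothelial and epithelial markers stayed low in 3T3-L1 cells, with sums of at most 82.4, 25.7 and 4.94. In DFAT cells PECAM1 stood at 149 to 236 with KDR at 0 in all 15 libraries and CDH5 at 0 in 14; CD68 reached 95.3 with CD3E at 0 in 15 and PTPRC at 0 in 14. The 3T3-L1 cells, labelled fibroblasts, had Pdgfra at 9933 to 22412 normalised counts, and DFAT cells had PDGFRA at 26236 to 65376 but DLK1, a preadipocyte marker, at 0 in 12 of 15 libraries.

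The genes whose levels followed the leading members most closely were ranked by Pearson's r over the 15 libraries of a system, which share treatment, so the values describe the pattern. In 3T3-L1 cells Grem1 was followed by Scpep1 (r = 0.982), Timp2 (0.982) and Ablim1 (0.980), Inhba by Rbms1 (0.954), Hivep3 (0.953) and Zdhhc20 (0.952), and Smad7 by Zfpm1 (0.956), Trib2 (0.955) and Sox4 (0.952). In DFAT cells TGFB3 was followed by CHST13 (0.954) and SMTN (0.951), INHBA by SYNC (0.972), HTR1B (0.961) and SYTL2 (0.960), and GREM1 by ZNF395 (0.914), ZNRF2 (0.896) and LDHA (0.891).

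As deposited, Grem1 lay on mouse chromosome 2 at 113576509 to 113588991 (minus strand), Inhba on chromosome 13 at 16186436 to 16206206 (plus) and Tgfb3 on chromosome 12 at 86103519 to 86125815 (minus). The pig genes lay on chromosome 1 at 136617105 to 136629292 (GREM1, plus), chromosome 18 at 52889684 to 52900967 (INHBA, plus) and chromosome 7 at 99133879 to 99162232 (TGFB3, minus). These are whole gene spans with exons, introns and untranslated regions, and the build of these coordinates was not settled; the promoter positions above belong to GRCm38.p6 and are not to be set beside them.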

How the data were processed

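Bulk RNA-seq of 30 libraries (15 per cell system, 5 groups of 3) was used. The signal values deposited by the authors are gene counts divided by DESeq2 size factors, 1 table per species, per the labels. The submitters' processing notes name bcl2fastq 2.19.1.403, STAR, DESeq2 and GRCm38 for both species, with no role; of 24070 mouse genes matched to GENCODE M21, 2.18% had the same start, so coordinates are given as deposited. Low values were whole reads (tolerance 0.02, up to 20 reads) in 81.7% to 82.7% of cases in 3T3-L1 and 89.7% to 91.0% in DFAT cells, so no count test was run. Whether counting used the strand is not given in the sources used here.

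Genes whose mean over 15 libraries reached 10 were fitted with limma 3.58.1 (R 4.3.3) on log2(value + 1), all 5 groups in 1 model with a variance trend, two-sided, with Benjamini-Hochberg adjustment at 0.05. Differences between systems divided the difference of fold changes by its standard error, with a t distribution on Welch-Satterthwaite degrees of freedom. The fits were tested on simulated data with independent libraries, so that test does not cover the pairing of the 3T3-L1 libraries described below. Python 3.11.15, numpy 2.4.6, pandas 2.3.3 and matplotlib 3.10.9 made tables and plots. Members and lists were chosen with earlier results of these data known. List genes named are the 3 largest called rises and falls per treatment with a mean of at least 100; likeness names the 3 genes nearest to each of the 3 members that changed most per system. Some genes these rules name are not reported here.

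Replicate numbers run from 1 to 3 in every group. In 3T3-L1 cells all 30 same-number pairs of libraries deviated together from their group means (r above 0.1 in each, lowest 0.106, median 0.30; median -0.142 where numbers differ), and the numbers were taken as pairs. In DFAT cells 16 of 30 did; there every pair lay above 0.1 only among the magnolol, combination and rosiglitazone groups. The main fit has no block, so its 3T3-L1 standard errors and adjusted p-values leave this pairing out. Some results with the block are given beside them and in the closing section. Alternatives were the pseudocount, the filter, the groups fitted, the variance trend, quantile normalisation, the replicate block and leaving out each library.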

Additional observations from a re-analysis of the deposited data

Results flagged for a closer look

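The response to a treatment differed between the 2 cell systems for 11 combinations of gene and treatment, by a test of the difference itself adjusted over 9368 symbols. Among all these symbols the test called 38.8% with rosiglitazone, 11.7% with the combination and 3.23% with magnolol. As the 3T3-L1 minus the DFAT log2 fold change, with rosiglitazone the differences were -2.45 for Grem1, -2.02 for Inhba, -1.56 for Smad7, -1.24 for Tgfb3 and -0.47 for Tgfb1. Rosiglitazone was called against vehicle as a fall of Grem1, Inhba, Smad7 and Tgfb3 in 3T3-L1 cells, where 19.9% of all genes were called lower. The same genes were called as rises in DFAT cells, where 5.8% of all genes were called higher. With the combination they were -1.66 for Inhba, -1.30 for Tgfb3, -0.75 for Grem1 (adjusted p = 0.043) and -0.68 for Smad7 (adjusted p = 0.036). With magnolol they were -1.27 for Inhba and -0.84 for Tgfb3. The Grem1 and Smad7 differences with the combination lost the call when 1 of several libraries was left out, for example 3T3-L1 vehicle replicate 2 (adjusted p = 0.154 and 0.0976) or 3T3-L1 combination replicate 1 (0.15 and 0.159).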

How the results depend on the processing

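Of the 22 calls of members against vehicle, none changed sign under any alternative run; 8 were lost under at least 1 of the 8 alternatives that keep all libraries and 9 when 1 library was left out. Of 32 calls of list genes chosen by the naming rule, 8 and 10 were lost in these ways. The cause was not tested. The number of members called moved as follows. With the replicate block it was 1 (from 0) with magnolol, 2 (from 1) with the combination and 1 (from 0) for the combination against dicoumarol in 3T3-L1 cells, and 2 (from 0) with dicoumarol in DFAT cells, where INHBA (adjusted p = 0.0194) and TGFBR3 (0.0261) were then called; TGFBR3 was called with magnolol too (0.0286). For pairs of DFAT groups that include vehicle or dicoumarol, the lowest r of same-number libraries ran from -0.306 to 0.0747. Still, 14 of 15 DFAT libraries correlated best, on average, with their own number. Whether the numbers pair the DFAT libraries was therefore not settled. Among all genes the block called 780 (from 193), 2124 (from 821) and 79 (from 0) in 3T3-L1 cells with magnolol, the combination and dicoumarol, and 670 (from 288), 1360 (from 626) and 2643 (from 1508) in DFAT cells with dicoumarol, magnolol and the combination. Without a variance trend the count was 0 for the 3T3-L1 combination, 2 for 3T3-L1 rosiglitazone against the combination, 5 for DFAT rosiglitazone, 1 for the DFAT combination against dicoumarol and 0 against magnolol; 80 of all genes were called with magnolol in 3T3-L1 cells. Without a filter on low genes the last 4 were 2, 4, 1 and 0. With only the groups compared they were 2 for 3T3-L1 rosiglitazone against the combination, 4 for DFAT rosiglitazone (931 of all genes, from 1604) and 0 for the DFAT combination against magnolol; 106 of all genes were called with magnolol in 3T3-L1 cells. Quantile normalisation left 1 for the DFAT combination against dicoumarol. Leaving out 1 library gave 0 to 2 members for the 3T3-L1 combination, 2 to 4 for 3T3-L1 rosiglitazone against the combination, 2 to 3 for DFAT magnolol, 4 to 7 for DFAT rosiglitazone, 1 to 2 for the DFAT combination against dicoumarol and always 0 against magnolol. For the differences between systems, where leaving out a library was added after seeing the data, 9 to 12 were called (from 11). The count was 13 with the replicate block in 3T3-L1 cells alone, also added after seeing the data, and 14 with it in both systems, where Tgfbr3 with rosiglitazone was called (adjusted p = 0.0467). Where the number of all genes called under a setting is not given, the member counts in this section have no background. They are then not to be read as results about the members. Precision is limited by 3 libraries per group.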
